A study of Mus musculus with 7 samples.

Results

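The genes described here are Trp53, which encodes the transcription factor p53, and 9 genes that p53 activates directly: Mdm2, Phlda3, Eda2r, Aen, Bbc3, Bax, Zmat3, Ccng1 and Trp53inp1. They were picked by name, as known members of the p53 pathway, with earlier results of these data known, as were the gene lists below. Counts of genes that rose therefore describe a chosen set and were not tested. All 10 were found by symbol among the 52636 genes of the deposited count table. All 10 also passed the filter on low counts that left 15512 genes for testing. The samples were 4 libraries labelled c-Maf KO (Maf KO) and 3 control libraries, each of polyadenylated RNA from mouse liver endothelial cells isolated by fluorescence-activated sorting. The sources used here do not give strain, age, sex, the driver of the deletion or the gate of the sort. Nothing says whether each library came from its own animal, so p-values reflect only how these libraries vary, part of which may be technical. The comparison asks how p53 and its targets differ in liver endothelium without c-Maf, a basic leucine zipper transcription factor.

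p53 is kept scarce in unstressed cells by Mdm2, a ubiquitin ligase that marks it for degradation. DNA damage, ribosomal stress and oncogenic growth signals free p53 from Mdm2, and the protein then binds its response elements and switches on genes for cell cycle arrest, DNA repair, survival signalling and apoptosis. Mdm2 is itself such a target, which closes a feedback loop. Because much of this control acts on the protein, the RNA level of Trp53 does not give the activity of p53.

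The response element consists of adjoining half-sites of 10 bases, the second directly after the first or after a short spacer. The closest matches near the starts of these genes are shown because they are the sequence by which p53 can reach a target. RefSeq promoter windows on GRCm38.p6 (250 bases before and 50 after a start) were at hand for 8 of the 10 genes, in 11 windows, and not for Zmat3 and Trp53inp1. The search used the p53 consensus of 20 bases without a spacer, with the C and G of both half-site cores fixed. The consensus reads the same on both strands. With at most 2 mismatches, 1 of the 11 windows held a match, against 0.326% of 32851 windows of all genes. With at most 1 mismatch it was the same window, against 0.067% of all windows, and with at most 3 it was 5 windows of 4 genes, against 1.38%. The matches, with the number of mismatches and the position relative to the RefSeq start, are written 5′ to 3′ on the strand of the gene.
Ccng1, 1 mismatch, chr11:40755462-40755481, minus strand, bases -195 to -176: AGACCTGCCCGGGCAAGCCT
Bbc3, 3 mismatches, chr7:16309486-16309505, plus strand, bases -97 to -78: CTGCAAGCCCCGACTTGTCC
Trp53, 3 mismatches, chr11:69580284-69580303, plus strand, bases -75 to -56: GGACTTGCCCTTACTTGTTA
Aen, 3 mismatches, chr7:78895937-78895956, plus strand, bases 10 to 29 of one start and -121 to -102 of the other: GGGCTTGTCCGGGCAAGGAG

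The wider sequence is shown for Ccng1, which held the closest match, for Bbc3, for Trp53 and for Phlda3, which changed most and held no match. Capitals mark the match given above. The stretches for Ccng1, Bbc3 and Phlda3 are the 250 bases before a RefSeq start (for Bbc3, the first of its 3 starts). The stretch for Trp53 is the whole 103 bases that separate it from Wrap53, a gene that runs the other way.
Ccng1, chr11:40755287-40755536, minus strand: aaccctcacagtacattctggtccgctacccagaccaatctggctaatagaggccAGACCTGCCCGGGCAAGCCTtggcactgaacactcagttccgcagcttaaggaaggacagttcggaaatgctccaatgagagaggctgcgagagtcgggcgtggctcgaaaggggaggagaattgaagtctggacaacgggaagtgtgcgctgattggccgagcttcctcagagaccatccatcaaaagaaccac
Bbc3, chr7:16309333-16309582, plus strand: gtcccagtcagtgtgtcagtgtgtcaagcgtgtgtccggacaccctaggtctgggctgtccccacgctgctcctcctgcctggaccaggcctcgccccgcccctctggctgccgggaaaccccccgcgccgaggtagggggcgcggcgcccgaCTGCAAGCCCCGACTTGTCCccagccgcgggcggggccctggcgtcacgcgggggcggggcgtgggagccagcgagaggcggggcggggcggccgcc
Trp53, chr11:69580256-69580358, plus strand: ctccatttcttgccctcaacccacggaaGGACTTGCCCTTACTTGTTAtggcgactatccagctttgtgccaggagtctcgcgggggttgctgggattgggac
Phlda3, chr1:135765835-135766084, plus strand: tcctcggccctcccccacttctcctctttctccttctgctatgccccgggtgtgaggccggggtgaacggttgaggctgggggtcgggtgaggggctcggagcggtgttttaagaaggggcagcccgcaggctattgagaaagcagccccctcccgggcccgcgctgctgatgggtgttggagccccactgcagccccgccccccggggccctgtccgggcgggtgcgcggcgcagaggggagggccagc
Letters that match are a description and not evidence of a bound site, and windows of this length do not cover introns, where several known p53 sites lie. A second search looked for TGCTGA, the conserved start of the element that MAF proteins bind, on both strands. It was present in 2 of the 11 windows, those of Phlda3 and Trp53, against 19.5% of all windows.

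Total counts were 25785691 to 32960007 in KO libraries and 24772716 to 30415437 in controls. Maf stood at 28.9, 158.9, 124.5 and 37.7 CPM (counts relative to the TMM-scaled library size) in KO 1 to 4, against 1664, 2088 and 2147 CPM in controls 1 to 3. Of 10 endothelial markers, all tested, Pecam1, Kdr, Tek, Erg and Eng fell, Egfl7 rose 1.49-fold, and Cdh5, Tie1, Emcn and Esam did not pass. Their summed level ran from 12180 to 16620 CPM in the KO and from 19320 to 21390 CPM in controls, and fewer cells of a type and less RNA per cell cannot be told apart in such bulk samples. By the lane in the library names, KO 3 and control 3 were run in lane 4 and all others in lane 5. Expression differed widely between the genotypes: 45.2% of the genes tested passed, with 23.0% of all tested higher in the KO and 22.2% lower. Rose and fell mean an adjusted p under 0.05 in edgeR's quasi-likelihood test, adjusted over all 15512 genes. The median log2 fold change of all genes was 0.043 with TMM scaling, 0.17 after upper-quartile scaling and 0.31 when only library totals were used.

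Of the 10 genes, 7 rose in the Maf KO, 0 fell and 3 did not pass, beside 23.0% that rose and 45.2% that passed in either direction among all genes tested. The genes that rose were Phlda3, Bbc3, Eda2r, Aen, Trp53, Zmat3 and Bax, in descending order of fold change, between 4.98-fold and 1.49-fold. In each of these 7 every KO library lay above every control library, which was so for 25.6% of all genes tested, and groups that did not overlap in either direction made up 50.3%. Mdm2, Ccng1 and Trp53inp1 were the genes that did not pass. The median log2 fold change of the 10 was 0.87, with quartiles of 0.32 and 1.66, beside 0.043 for all genes tested, whose quartiles were -0.35 and 0.48. The same count of 7 was found without any single library, in lane 5 alone, without both KO 1 and KO 4 and without both KO 1 and KO 2. Over all genes 2379 to 3769 rose without single libraries, 3069 in lane 5 alone, and 2234 and 2313 without those pairs.

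**Figure D1:**
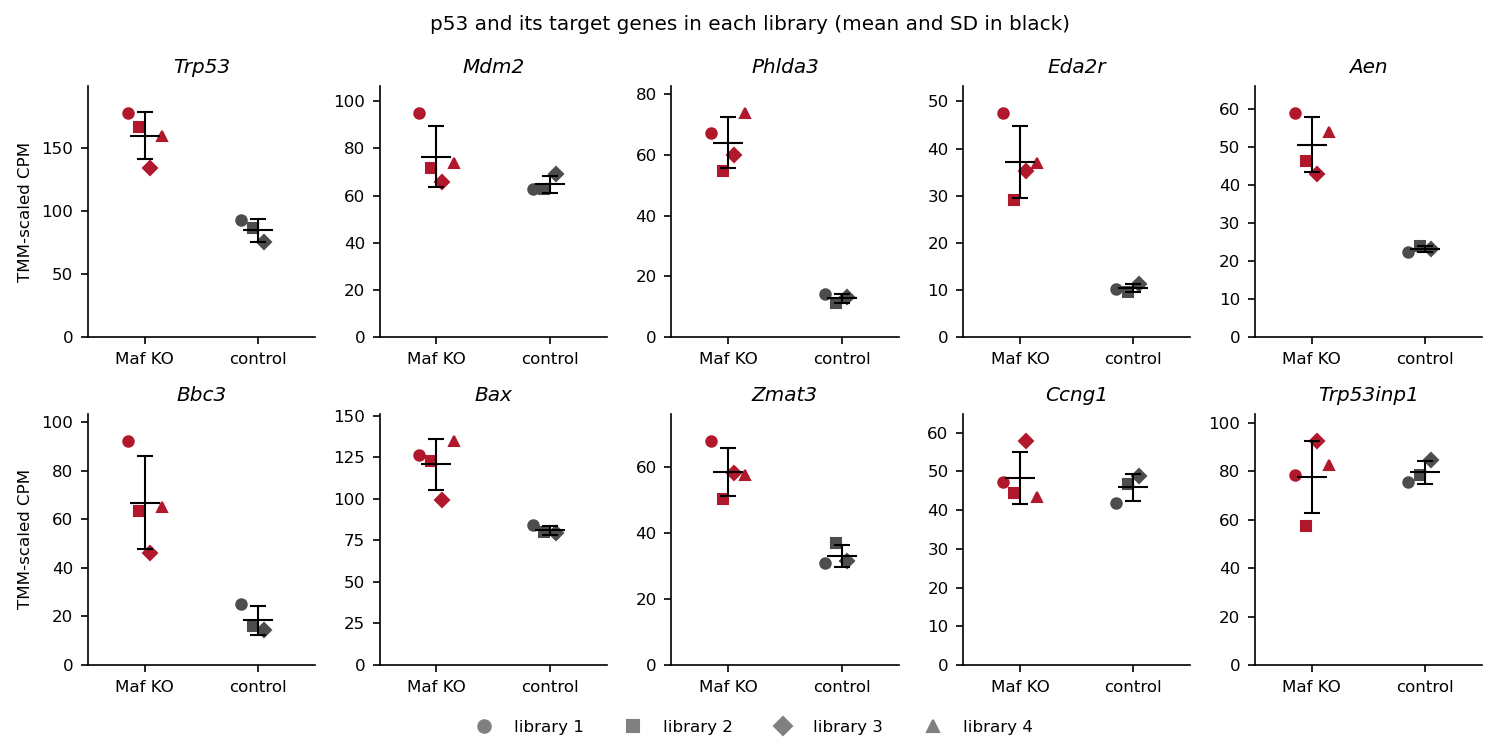
TMM-scaled CPM of Trp53 and 9 p53 target genes in 4 Maf KO libraries (red) and 3 control libraries (grey), with each axis starting at 0 and the mean and SD in black. In 7 genes all KO libraries lie above all controls, while Mdm2, Ccng1 and Trp53inp1 overlap.

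Trp53 (ENSMUSG00000059552, chr11:69580359-69591873, plus strand, protein-coding) stood at 178, 167, 134 and 159.9 CPM in KO 1 to 4, against 92.9, 86.2 and 75.1 CPM in controls 1 to 3. The lowest KO library, KO 3, was above the highest control. The rise was 1.88-fold (log2 fold change 0.91, SE 0.12, adjusted p = 0.000391, edgeR). Its head-to-head neighbour Wrap53, which encodes a telomerase and small Cajal body RNA factor, also rose, 1.53-fold, at 16.2 ± 0.468 CPM in the KO and 10.6 ± 0.767 CPM in controls (SD, n = 4 and 3, adjusted p = 0.00123, edgeR). Both genes have their starts beside the 103 bases printed above, and GENCODE release M21 shows no overlap between them.

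Mdm2 (ENSMUSG00000020184, chr10:117688875-117710758, minus strand, protein-coding) had 95.1, 71.5, 65.8 and 74.0 CPM in KO 1 to 4 and 62.7, 62.9 and 69.1 CPM in controls 1 to 3. KO 1 stood apart at the top, and KO 3 lay inside the range of the controls. The log2 fold change of 0.24 (SE 0.125) did not pass (adjusted p = 0.145, edgeR). The value depended on scaling: upper-quartile factors took Mdm2 past the threshold (log2 fold change 0.37, adjusted p = 0.0494), as did library totals (0.51, adjusted p = 0.0131), where the median of all genes was 0.17 and 0.31. Without KO 1 the log2 fold change was 0.12.

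Phlda3 encodes a pleckstrin homology domain protein that competes with the kinase Akt for membrane lipids and so restrains Akt. Its gene (ENSMUSG00000041801, chr1:135766119-135769136, plus strand, protein-coding) had 67.4, 54.8, 60.1 and 73.8 CPM in KO 1 to 4, against 14.1, 11.2 and 13.3 CPM in controls 1 to 3. The groups were far apart, and the KO libraries differed little among themselves. The rise of 4.98-fold was the largest of the 10 (log2 fold change 2.32, SE 0.133, adjusted p = 8.30e-06, edgeR), and 3.11% of all genes tested had a larger log2 fold change. Its relative Phlda1 rose 2.69-fold, with groups that overlapped (12.3 ± 5.89 CPM in the KO and 4.55 ± 1.40 CPM in controls, adjusted p = 0.0175), and Phlda1 missed the threshold when control 2 (adjusted p = 0.0656) or control 3 (0.0612) was left out, with limma-voom (0.0559), and without both KO 1 and KO 4 (0.0676) or both KO 1 and KO 2 (0.120).

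Eda2r encodes a receptor of the tumour necrosis factor receptor family that binds the A2 form of ectodysplasin. The gene (ENSMUSG00000034457, chrX:97333840-97377216, minus strand, protein-coding) had 47.6, 29.0, 35.2 and 37.0 CPM in KO 1 to 4, against 10.2, 9.62 and 11.3 CPM in controls 1 to 3. KO 2, the lowest KO library, was well above the highest control, control 3. The rise was 3.59-fold (log2 fold change 1.84, SE 0.167, adjusted p = 5.53e-05, edgeR). The ligand gene Eda was left out by the filter on low counts, at 0.232 ± 0.098 CPM in the KO and 0.0260 ± 0.0227 CPM in controls. Edar, the receptor for the other form of the ligand, had 0 counts in every library. Edaradd, the adaptor of Edar, fell 1.74-fold to 5.06 ± 0.765 CPM in the KO, against 8.80 ± 0.810 CPM in controls (adjusted p = 0.00364).

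The apoptosis genes of the set rose by different factors. Bbc3 encodes PUMA, a BH3-only protein that binds and neutralises anti-apoptotic BCL-2 proteins. The gene (ENSMUSG00000002083, chr7:16308393-16318205, plus strand, protein-coding) had 92.5, 63.6, 46.1 and 65.0 CPM in KO 1 to 4, against 25.3, 15.9 and 14.3 CPM in controls 1 to 3. It varied most within groups, with a coefficient of variation of 28.7% in the KO and 32.2% in controls, yet the groups did not overlap. The rise was 3.60-fold (log2 fold change 1.85, SE 0.264, adjusted p = 0.000623, edgeR), with log2 fold changes of 1.65 to 2.14 when single libraries were left out.

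Bax encodes an effector that forms pores in the outer mitochondrial membrane. The gene (ENSMUSG00000003873, chr7:45461697-45466898, minus strand, protein-coding) had 126, 123, 99.1 and 135 CPM in KO 1 to 4, against 84.0, 79.9 and 79.3 CPM in controls 1 to 3. All KO libraries were above the controls, with KO 3 closest to them. The rise was 1.49-fold (log2 fold change 0.57, SE 0.11, adjusted p = 0.00289, edgeR), the smallest of the 7. Bax overlaps Gm45808 on the same strand by 915 bases, and Gm45808 had 0 counts in every library. How reads in the shared bases were counted is not known, so the level of Bax may leave some out. Bak1, the other main effector of this kind, did not pass at 54.7 ± 6.16 CPM in the KO and 52.9 ± 4.81 CPM in controls (adjusted p = 0.727), although it did with library totals (log2 fold change 0.31, adjusted p = 0.0195).

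Aen encodes a nuclear exonuclease that takes part in apoptotic DNA digestion. The gene (ENSMUSG00000030609, chr7:78895854-78911209, plus strand, protein-coding) had 58.96, 46.4, 42.9 and 53.9 CPM in KO 1 to 4, against 22.3, 23.9 and 23.3 CPM in controls 1 to 3. The controls were within 2 CPM of each other, and every KO library was above them. The rise was 2.18-fold (log2 fold change 1.124, SE 0.119, adjusted p = 0.000125, edgeR). The related exonuclease genes Isg20 and Isg20l2 rose 1.69- and 1.24-fold. Isg20l2 missed the threshold when control 2 (adjusted p = 0.0554) or control 3 (0.0704) was left out, in lane 5 alone (0.102) and without both KO 1 and KO 2 (0.0789).

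Zmat3 encodes a zinc finger protein that binds RNA and acts on splicing and mRNA stability. The gene (ENSMUSG00000027663, chr3:32334792-32366014, minus strand, protein-coding) had 68.1, 50.4, 58.1 and 57.7 CPM in KO 1 to 4, against 31.1, 37.0 and 31.4 CPM in controls 1 to 3. The groups did not overlap. The rise was 1.77-fold (log2 fold change 0.82, SE 0.116, adjusted p = 0.000597, edgeR).

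Ccng1 and Trp53inp1 did not pass. Ccng1 encodes cyclin G1, which recruits protein phosphatase 2A to Mdm2. The gene (ENSMUSG00000020326, chr11:40748552-40755311, minus strand, protein-coding) had 47.2, 44.4, 57.97 and 43.3 CPM in KO 1 to 4 and 41.9, 46.8 and 48.9 CPM in controls 1 to 3. The groups overlapped, with KO 3 alone above all controls. Its log2 fold change of 0.073 (SE 0.116, adjusted p = 0.632, edgeR) became -0.041 without KO 3 and -0.025 in lane 5 alone. With library totals it was 0.33 (adjusted p = 0.0259), close to that scaling's median of all genes, 0.31. Trp53inp1 encodes a nuclear protein that supports p53-dependent arrest and autophagy. The gene (ENSMUSG00000028211, chr4:11156431-11174379, plus strand, protein-coding) had 78.4, 57.3, 92.7 and 82.7 CPM in KO 1 to 4 and 75.6, 78.4 and 84.8 CPM in controls 1 to 3. KO 2 lay below every control and KO 3 above. Its log2 fold change of -0.032 (SE 0.146, adjusted p = 0.870, edgeR) became 0.084 without KO 2, 0.0098 without control 3, 0.094 under upper-quartile scaling and 0.23 under library totals. Its relative Trp53inp2 fell 1.47-fold to 64.1 ± 13.6 CPM in the KO, against 94.1 ± 7.40 CPM in controls (adjusted p = 0.0144), but missed the threshold when control 2 was left out (adjusted p = 0.0598), with library totals (0.0857), and without both KO 1 and KO 4 (0.106) or both KO 1 and KO 2 (0.115). Ccni, a relative of Ccng1, fell 1.57-fold to 117 ± 25.9 CPM in the KO, against 183 ± 9.01 CPM in controls (adjusted p = 0.00866), and did not pass without both KO 1 and KO 2 (0.0603).

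Of the 18 listed relatives of these genes 12 were tested, of which 3 rose (25%) and 4 fell (33.3%), beside 23.0% and 22.2% of all genes. Without control 2, 1 rose and 2 fell, where 2379 and 2584 of 15994 genes tested did. Without control 3, 1 rose, where 2806 of 15949 genes did. Without both KO 1 and KO 2, 1 rose and 1 fell, where 2313 and 2344 of 15534 genes did. With upper-quartile factors 5 rose and with library totals 6, where 4749 and 6373 of 15512 genes did. The p53 family genes Trp63 and Trp73 were below the filter, Trp63 with 0 counts in every library.

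**Figure D2:**
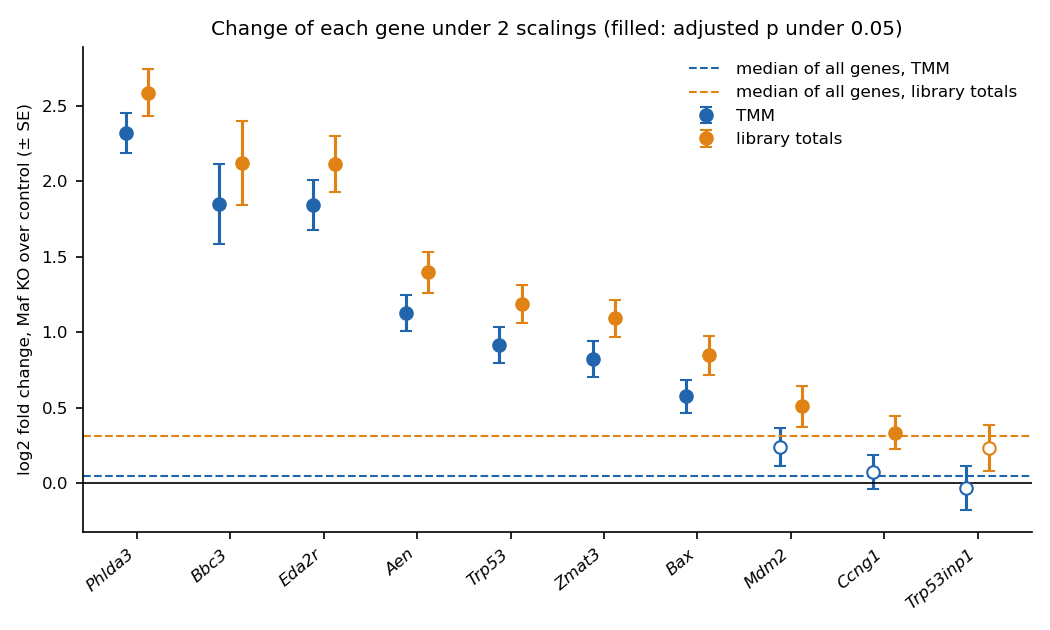
Log2 fold change of each gene, Maf KO over control, with its SE, under TMM scaling and under library totals. Filled points had an adjusted p under 0.05, and dashed lines give the median of all genes under each scaling. The 7 genes that rose do so under both scalings and lie above both medians, whereas Mdm2, Ccng1 and Trp53inp1 lie closest to the medians.

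Levels of different genes were set beside each other as CPM per kilobase of merged exon (GENCODE release M21). In the KO Bax had the highest level per kilobase, 76.7 ± 9.76, followed by Phlda3 at 41.1 ± 5.33, Trp53 at 39.5 ± 4.61 and Bbc3 at 31.4 ± 9.03 (SD, n = 4). Phlda3, Trp53 and Bbc3 were not separated by their spread. Mdm2 at 15.1 ± 2.52, Ccng1 at 13.7 ± 1.91 and Trp53inp1 at 12.01 ± 2.30 came next and were within an SD of their neighbours. Aen at 8.71 ± 1.25, Eda2r at 6.31 ± 1.31 and Zmat3 at 5.12 ± 0.633 were lowest. In controls the order was Bax at 51.5 ± 1.63, Trp53 at 21.0 ± 2.22, Ccng1 at 13.1 ± 1.02, Mdm2 at 12.8 ± 0.718 and Trp53inp1 at 12.3 ± 0.731 (SD, n = 3). Bbc3 at 8.70 ± 2.80, Phlda3 at 8.24 ± 0.947, Aen at 4.00 ± 0.141, Zmat3 at 2.90 ± 0.290 and Eda2r at 1.76 ± 0.147 followed. The spread did not separate Bbc3 from Phlda3, or Ccng1, Mdm2 and Trp53inp1 from each other. Phlda3 and Bbc3 thus stood below Ccng1, Mdm2 and Trp53inp1 per kilobase in controls and above them in the KO.

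Ratios of counts within a library do not depend on how libraries are scaled. Relative to Trp53, Phlda3 had 0.379, 0.328, 0.448 and 0.462 counts per Trp53 count in KO 1 to 4, against 0.151, 0.130 and 0.177 in controls 1 to 3. Eda2r and Bbc3 were likewise higher relative to Trp53 in every KO library, at 0.234 ± 0.0430 and 0.413 ± 0.0759 counts per Trp53 count in the KO (SD, n = 4), against 0.124 ± 0.0232 and 0.215 ± 0.0491 in controls (SD, n = 3). Mdm2 was lower relative to Trp53 in every KO library, with 0.535, 0.428, 0.491 and 0.463 counts per Trp53 count in KO 1 to 4, against 0.674, 0.729 and 0.919 in controls 1 to 3. Ccng1, Bax and Trp53inp1 were also lower relative to Trp53 in every KO library, whereas Aen and Zmat3 overlapped between the groups. Thus 3 of the 9 targets were higher, 4 were lower and 2 overlapped, while of 15511 other genes tested 4.75% were higher and 68.5% lower by the same measure. Since Trp53 itself rose, a gene whose level stays the same comes out lower, and these ratios were not tested.

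**Figure D3:**
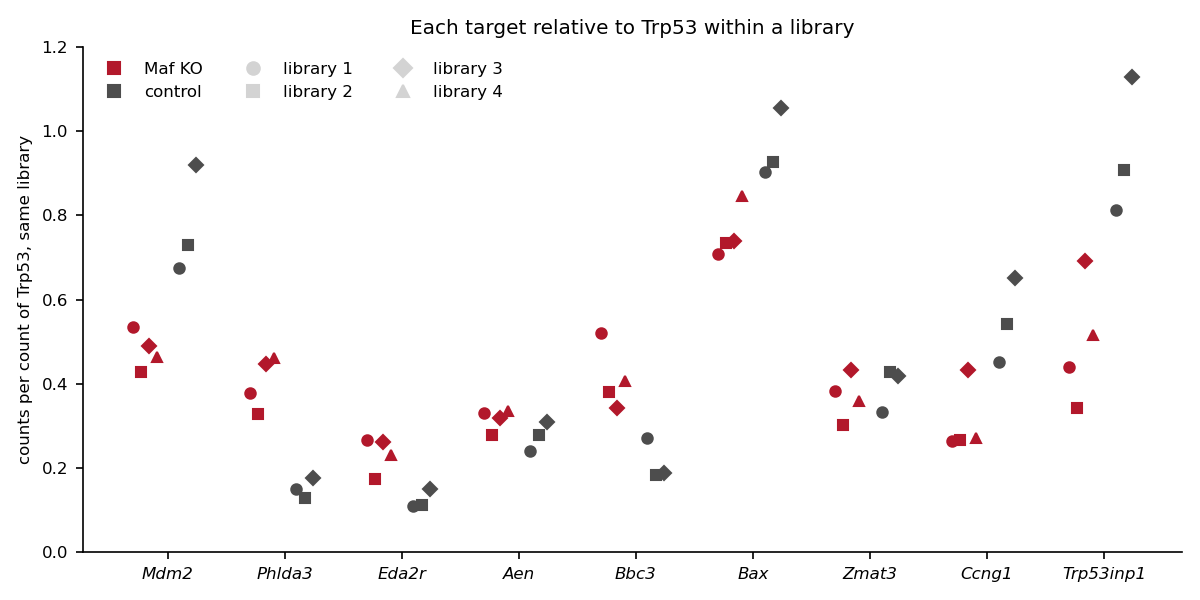
Counts of each of 9 p53 targets divided by the counts of Trp53 in the same library, for 4 Maf KO libraries (red) and 3 controls (grey). Phlda3, Eda2r and Bbc3 lie higher in every KO library, and Mdm2, Bax, Ccng1 and Trp53inp1 lower.

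KO libraries were not alike. KO 1 held the highest KO value of 6 of the 10 genes, among them Trp53, Mdm2 and Bbc3, and of 28.1% of all genes tested. KO 3 held the lowest value of 5 of the 10 and of 30.8% of all genes. As a share of the control mean, the median of the 10 genes was 208%, 175%, 167% and 181% in KO 1 to 4. The list of immediate-early and dissociation stress genes, which can rise while tissue is taken apart, had the same libraries at its ends. Of its 20 genes 12 rose (60%) and 0 fell, beside 23.0% and 22.2% of all genes tested. Its summed level was 32370, 26490, 16530 and 19810 CPM in KO 1 to 4, against 14060, 13800 and 11280 CPM in controls 1 to 3. Hepatocyte markers, of which 5 of 10 rose (50%) and 0 fell, beside the same shares of all genes, had higher sums in the KO. They summed to 1342, 332, 417 and 657 CPM in KO 1 to 4 and to 270 to 305 CPM in controls. The part of either list in the p53 results was not tested. Without KO 1 the 7 genes rose again, and the log2 fold change of Bbc3 was 1.65 and that of Trp53 0.85. Without both KO 1 and KO 2, a pair chosen after seeing the data, they were 1.58 and 0.79. These libraries had the highest stress sums, but KO 3 and KO 4 also lay above every control in that sum. Leaving libraries out was therefore no test of the stress list. Other markers summed to 44.9 to 159.8 CPM in the KO and 83.6 to 203 CPM in controls for Kupffer cells, 8.97 to 48.9 and 18.1 to 168 CPM for stellate cells and fibroblasts, and 111 to 189 and 78.2 to 126 CPM for platelets and megakaryocytes. The erythroid, B cell, T and NK cell, neutrophil and cholangiocyte lists each summed to under 60 CPM in every library, with Ncr1 and Elane at 0 counts in all.

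Other genes that p53 is known to activate also rose more often than they fell. Of 54 listed genes, all tested, 27 rose (50%), 9 fell (16.7%) and 18 did not pass, beside 23.0% and 22.2% of all genes, and the median log2 fold change was 0.58. Pidd1, the death-domain scaffold that activates caspase-2, had 42.1, 29.0, 24.9 and 43.5 CPM in KO 1 to 4, against 6.77, 6.04 and 7.15 CPM in controls 1 to 3. It rose 5.24-fold (log2 fold change 2.39, SE 0.216, adjusted p = 5.49e-05, edgeR). Cdkn1a, which encodes the cell cycle inhibitor p21, had 525, 317, 261 and 333 CPM in KO 1 to 4, against 96.9, 160.1 and 209 CPM in controls 1 to 3. Its groups did not overlap, although both were widely spread, and it rose 2.31-fold (log2 fold change 1.21, SE 0.296, adjusted p = 0.0096, edgeR). Ddit4l, an inhibitor of mTOR signalling, was close to silent in controls, with 4, 2 and 9 counts in controls 1 to 3, and reached 8.31, 7.39, 4.77 and 4.84 CPM in KO 1 to 4. Cpt1c, the brain-type carnitine palmitoyltransferase, rose 12.9-fold to 19.4 ± 5.12 CPM in the KO, against 1.51 ± 0.398 CPM in controls.

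Psrc1, Gtse1 and Ckap2, whose proteins bind microtubules and which are also expressed with the mitotic genes, rose 17.3-, 10.7- and 10.1-fold. Of the 27 genes on the cell cycle list, 26 rose (96.3%) and 0 fell, beside 23.0% and 22.2% of all genes tested. The list summed to 1354 to 1499 CPM in the KO and 426 to 506 CPM in controls. What the rise of the cell cycle list has to do with these genes was not tested. Btg2, an antiproliferative gene that is also on the dissociation stress list, rose 3.51-fold, with 673, 509, 302 and 309.9 CPM in KO 1 to 4, against 145, 122 and 116 CPM in controls 1 to 3. Among the genes that fell were the death receptor gene Fas, at 65.3 ± 7.18 CPM in the KO and 103 ± 8.14 CPM in controls (adjusted p = 0.00099), and Xpc, the damage sensor of nucleotide excision repair, at 96.9 ± 14.7 CPM in the KO and 187 ± 29.5 CPM in controls (adjusted p = 0.000867). The number that fell was 5 without both KO 1 and KO 4, 4 without both KO 1 and KO 2 and 5 with library totals. Over all genes tested 2420, 2344 and 1976 fell in these settings, against 3448.

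Of 25 genes that control p53, 7 rose (28%) and 6 fell (24%), near the 23.0% and 22.2% of all genes, with a median log2 fold change of 0.18. Cdkn2a, whose alternative product Arf restrains Mdm2, rose 2.52-fold, with 13.8, 19.8, 18.7 and 17.1 CPM in KO 1 to 4, against 6.44, 7.12 and 7.11 CPM in controls 1 to 3 (adjusted p = 0.000138, edgeR). Counts per gene do not separate Arf from p16, the other product of that gene. Rpl11, a ribosomal protein that can bind Mdm2, rose 1.65-fold, and Rpl5, which does so together with it, did not pass at 116 ± 12.5 CPM in the KO and 95.4 ± 7.63 CPM in controls (adjusted p = 0.0561). Rpl5 did pass once KO 1 (adjusted p = 0.0262) or both KO 1 and KO 4 (0.0185) were left out. It also passed under upper-quartile factors (0.00663), library totals (0.00129) and a minimum count of 50 (0.0321). How reads shared with near-identical ribosomal pseudogenes were counted is not known, so the values of Rpl5 and Rpl11 may be uncertain. Mdm4, the partner of Mdm2, did not pass at 248 ± 26.4 CPM in the KO and 216 ± 0.781 CPM in controls (adjusted p = 0.154), but did without KO 3 (0.0285), under upper-quartile factors (0.0402) and under library totals (0.00888). Aurka, a mitotic kinase that phosphorylates p53, the arginine methyltransferase gene Prmt5 and Ppp1r13b, which encodes the p53 cofactor ASPP1, rose 4.94-, 1.58- and 1.36-fold. These counts depended on the scaling. With upper-quartile factors 13 rose and 4 fell, where 4749 of all 15512 genes tested rose and 2738 fell. With library totals 16 rose and 1 fell, where 6373 of the 15512 rose and 1976 fell. Without control 2, 3 fell, where 2584 of all genes fell. Without both KO 1 and KO 4, and without both KO 1 and KO 2, 2 fell, where 2420 and 2344 of all genes fell.

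Of 24 listed genes of DNA damage signalling 22 were tested, of which 13 rose (59.1%) and 2 fell (9.09%), beside 23.0% and 22.2% of all genes, with a median log2 fold change of 0.46. The cell cycle list, of which 26 of 27 genes rose, moved with it, and its part in this count was not tested. Brca1, which acts in homologous recombination, rose 8.18-fold and the checkpoint kinase genes Chek1 and Chek2 5.31- and 2.63-fold. Chek2, whose product phosphorylates p53, had 31.8, 31.8, 33.9 and 38.6 CPM in KO 1 to 4, against 12.5, 12.03 and 14.4 CPM in controls 1 to 3. Wee1, a kinase that holds back entry into mitosis, and Topbp1, an activator of the kinase ATR, rose 5.31- and 1.61-fold. Trp53bp1, a repair factor that binds p53, rose 1.35-fold and the damage kinase gene Atr 1.41-fold, though Atr missed the threshold when control 1 (adjusted p = 0.0666) or control 2 (0.0638) was left out, and without both KO 1 and KO 4 (0.0751) or both KO 1 and KO 2 (0.1102). The kinase gene Atm did not pass, at 21.7 ± 1.63 CPM in the KO and 23.0 ± 2.36 CPM in controls (adjusted p = 0.511). A single gene of this list fell without any one library other than KO 1, where 2584 to 3930 of all genes fell, against 3448.

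The BCL-2 family and caspases are the machinery on which PUMA and Bax act. Of 29 listed genes 26 were tested, of which 4 rose (15.4%) and 7 fell (26.9%), beside 23.0% and 22.2% of all genes, and the median log2 fold change was -0.042. Bik, a BH3-only gene, rose 1.81-fold to 113 ± 11.5 CPM in the KO, against 62.6 ± 9.91 CPM in controls (adjusted p = 0.000745), and Birc5, the survivin gene, which is also on the cell cycle list, rose 9.90-fold. The anti-apoptotic gene Bcl2l2 fell 1.49-fold, Bok, a relative of Bax, 1.66-fold, the caspase inhibitor gene Xiap 1.42-fold and the mitochondrial nuclease gene Endog 1.58-fold. With library totals Xiap (adjusted p = 0.0733) and Endog (0.05001) did not pass, and Xiap did not without both KO 1 and KO 2 (0.0640). Bcl2 and Mcl1, which restrain Bax and bind PUMA, did not pass, at 24.6 ± 3.42 and 502 ± 91.9 CPM in the KO and 25.3 ± 4.43 and 424 ± 17.7 CPM in controls (adjusted p = 0.838 and 0.211). With library totals 12 rose and 2 fell, where 6373 of all 15512 genes tested rose and 1976 fell. Without KO 2, control 2 or control 3, 2 rose, where 3085, 2379 and 2806 of all genes rose, against 3561. Without both KO 1 and KO 4, 2 rose and 4 fell, where 2234 and 2420 of all genes did. Without both KO 1 and KO 2, 2 rose, where 2313 of all genes did.

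**Figure D4:**
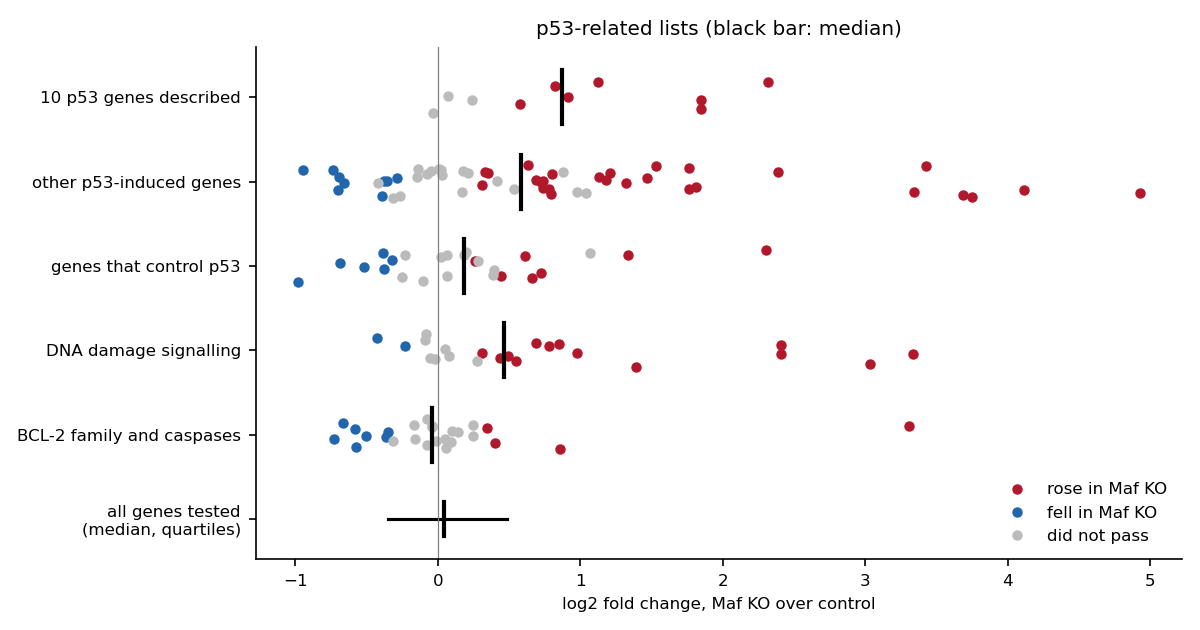
Log2 fold change, Maf KO over control, of each tested gene of 5 p53-related lists, with the median as a black bar and the median and quartiles of all 15512 genes tested in the lowest line. The medians are 0.87 for the 10 genes described, 0.58 for other p53-induced genes, 0.18 for genes that control p53, 0.46 for DNA damage signalling and -0.042 for the BCL-2 family and caspases.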

How the data were processed

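Polyadenylated RNA of sorted mouse liver endothelial cells was sequenced in 4 Maf KO and 3 control libraries. The authors deposited 1 table of raw counts, with Ensembl gene IDs in rows. FastQC 0.11.5, STAR 2.7.6a and build GRCm38 were used, per the submitters' processing notes. The kit is given as an unstranded or a stranded version, per the labels' protocols, without saying which library had which. The sources used here name no counting tool and no strand setting.

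Counts were analysed in R 4.3.3 with edgeR 4.0.16. Genes were filtered with filterByExpr (minimum count 10, total 15), scaled by TMM and tested by the quasi-likelihood F-test with no covariate and Benjamini-Hochberg adjustment over 15512 genes, at 0.05. SEs were obtained from F and the log2 fold change. DESeq2 1.42.0 and limma 3.58.1 (voom) were alternatives. The test was tried on simulated counts. Symbols were matched for 52403 of 52636 IDs. The members and lists were chosen with earlier results of these data known, and lists were described by counts and medians with no set test. All 10 members were named, with up to 6 called genes of smallest p and up to 4 others per list, apart from a result that is not reported here.

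Libraries within each group differed by more than counting noise (chi-square over its degrees of freedom, 13.2 to 96.1). A count of 3 corresponds to 0.0873 to 0.132 CPM, which limits the precision of low genes and covers counting error only.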

Additional observations from a re-analysis of the deposited data

Results flagged for a closer look

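Among the genes named above, looked at for a KO library far from the other 3, Trp53inp2, the relative of Trp53inp1, had its KO 3 value of 84.3 CPM set apart from 59.1, 58.4 and 54.6 CPM in KO 1, 2 and 4 (controls 86.2 to 101 CPM). The gap to the nearest of them was 0.851 of the whole range of the KO libraries. For a single gene, chance gives about 1 such value in 20 groups. With 53 genes looked at, 1 such value can therefore arise by chance.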

How the results depend on the processing

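Under 19 alternatives 7 to 9 of the 10 p53 genes rose and 0 fell: 8 with upper-quartile factors, 9 with library totals and 7 under each other. Trp53, Phlda3, Eda2r, Aen, Bbc3, Bax and Zmat3 passed under all 19. Of other p53-induced genes 22 (without control 2) to 32 (library totals) rose, where 2379 and 6373 of all genes did. The number that fell was 5 with library totals, 5 without both KO 1 and KO 4 and 4 without both KO 1 and KO 2 (chosen after seeing the data), against 9. Over all genes, library totals gave 6373 rises and 1976 falls, and upper-quartile factors 4749 and 2738, against 3561 and 3448. Rises were 2234 without both KO 1 and KO 4 and 2313 without both KO 1 and KO 2, where fewer samples were tested. Single libraries left out gave 2379 to 3769 rises and 2584 to 3930 falls over all genes. Signs of genes that did not pass turned. Trp53inp1 had log2 fold changes of 0.09435 (upper-quartile), 0.23 (library totals) and 0.14 (without both KO 1 and KO 2), and -0.141 to 0.0837 without single libraries. Ccng1 had -0.0249 in lane 5 and -0.0412 to 0.119 without single libraries. Atm had 0.0370 (upper-quartile) and 0.18 (library totals), and Bcl2 0.0892 and 0.23, and -0.15 to 0.10 without single libraries. Bak1 had -0.14 in lane 5 and -0.0369 to 0.105 without single libraries, and Mcl1 -0.0036 without both KO 1 and KO 2. The cause was not tested. The labels state no pairing of same-numbered libraries of the groups, whose deviations correlated at -0.0235, 0.182 and 0.0398. KO 2 correlated best with control 2, and KO 3 with control 3, though hardly more than with control 2 (0.0380). KO 1 correlated best with control 3 (0.0891). So few libraries cannot decide whether they pair. With the replicate block, over libraries 1 to 3 of each group, 7 of the 10 genes rose and, over all genes, 2448 rose and 2607 fell. The block ended the calls of Atr (adjusted p = 0.0588), Isg20l2 (0.0603) and Xiap (0.0527), and 3 genes that control p53, 1 of DNA damage signalling and 4 of the BCL-2 list fell, against 6, 2 and 7.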
